A study of Mus musculus with 9 samples.

Results

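The 132 genes described here are autosomal long intergenic noncoding RNAs (lincRNAs) above a fixed level in 9 RNA-seq libraries of mouse colon organoids. They were chosen by their gene type in the GENCODE M21 annotation (lincRNA, on an autosome) and by a mean of 20 or more normalised read counts over the 9 libraries, with Gm42418 and Gm26917 of the ribosomal RNA locus left out. The deposited table holds 48795 genes, of which 3840 are lincRNA genes, 3195 of them on autosomes. Colon organoids are three-dimensional cultures grown from crypts, and these were kept in WENR, a medium with Wnt3a, EGF, Noggin and R-spondin that holds the epithelium in a stem cell state. The wild-type (WT) cultures came from C57BL/6 littermates of the Villin-Cre Ahr fl/fl mice that gave the AHR KO cultures, so that Ahr, which encodes the aryl hydrocarbon receptor (AHR), was floxed and Cre was driven by an epithelial promoter. Each culture received the solvent DMSO or 5 nM FICZ, a high-affinity ligand of AHR, for 4 h. The groups were WT DMSO (n = 2, replicates 2 and 3), WT FICZ (n = 3, replicates 1, 2 and 3), AHR KO DMSO (n = 2, replicates 1 and 3) and AHR KO FICZ (n = 2, replicates 1 and 3). The ages of the mice are not given in the sources used here, and the study's methods describe crypts from several mice of each genotype as biological replicates. The labels do not tie a library to a mouse, and p-values measure the spread between these libraries.

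LincRNAs are transcripts of RNA polymerase II that are mostly capped, spliced and polyadenylated like mRNAs but carry no long open reading frame. Many are made at low levels and stay in the nucleus, where a few have known structural roles: Neat1 is the scaffold of paraspeckles, and Malat1 gathers in nuclear speckles with splicing factors. Others act in the cytoplasm, serve as the hosts of small nucleolar RNAs or microRNAs, or lie beside a gene whose transcription they accompany.

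Normalised read counts summed to between 23177058 and 25033827 per library, and the 132 lincRNAs took 0.216 to 0.258% of that sum. The targeted gene did not fall: Ahr had 783 to 858 normalised read counts in the 5 WT libraries and 1346 to 1443 in the 4 AHR KO libraries, so every direction between genotypes rests on the labels. The ligand response of the receptor's target genes did separate the labels, as all 9 of the 10 fixed AHR targets that were tested rose with FICZ in WT and were lower in AHR KO than in WT under FICZ, while in AHR KO 3 rose with FICZ and 1 fell. The 8 epithelial markers summed to 308100 to 335000 in every library. The 8 fibroblast markers summed to 57.5 to 86.8 in WT DMSO, 87.5 to 111 in WT FICZ, 19.4 to 35.4 in AHR KO DMSO and 39.0 to 40.7 in AHR KO FICZ (Lum at 0 throughout), the 5 neuron and glia markers to 61.7 to 94.8 in WT and 15.6 to 50.5 in AHR KO (Gfap and S100b at 0), the 5 endothelial markers to 25.6 to 57.8 in WT and 18.5 to 22.2 in AHR KO, and the 8 immune markers to 507 to 585 in WT DMSO, 482 to 534 in WT FICZ, 506 to 604 in AHR KO DMSO and 562.5 to 726 in AHR KO FICZ (Ptprc, Lyz2 and Adgre1 at 0). Only 1 of the 8 fibroblast, 1 of the 5 neuron and glia, 1 of the 5 endothelial and 2 of the 8 immune markers reached a mean of 10. A difference in these sums can therefore come from few genes. At low levels, the fibroblast, neuron and glia, and endothelial sums moved with genotype. The fibroblast sum also moved with FICZ in each genotype, and the immune sum with genotype under FICZ. Their part in the lincRNA differences was not tested.

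The choice of members used the mean level alone, and no lincRNA in it was at 0 in any library. Means ran from 20.1 in 1810008I18Rik to 13259 in Gm42428, with a median of 63.8. Just inside the limit were 1810008I18Rik (20.1), 1700086O06Rik (20.3) and Gm42595 (20.4), and just outside it were Gm36445 (19.8), 4632411P08Rik (19.7) and Gdap10 (19.6). In 8 of the 132 the mean was under 20 once the group with the highest mean was left out, among them Gm26912 and 1810008I18Rik, each of which is called in 1 comparison below. The 5 lincRNAs with the highest counts held 59.3% of the summed lincRNA signal. The gene models were short, with a median of 3 exons and 2453 bases of exon, and 20 of the 132 had a single exon. The median GC content of the exons was 46.6%. The protein-coding genes tested had a median of 9 exons, 4491 exonic bases, 49.6% GC and a level of 727 normalised read counts. The nearest protein-coding gene overlapped 23 of the lincRNAs, 17 on the opposite and 6 on the same strand. For the others it lay on the same strand in 64, faced away (divergent) in 29 and faced towards the lincRNA (convergent) in 16.

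Several of the lincRNAs are near-copies of other genes, and reads from such copies could be split between them by the counting. The longest transcript of each was aligned to all GENCODE transcripts: 27 of the 132 shared at least 50% of their length on the sense strand with other genes (stretches of 100 bases or more at 95% identity or more), 46 shared less and 59 shared none. The libraries were stranded, but whether reads were counted by strand is not given in the sources used here. Counted on either strand, 40 of the 132 shared at least 50%, among them Gm26880 (94.0%), Gm26526 (100%), Gm10874 (74.0%), Gm26582 (70.8%) and Gm26619 (50.6%), which are described below as higher with FICZ, and Gm26825 (98.6%). 2610035D17Rik, Gm45397 and Gm3054 shared 0% on either strand. A pair of which both members are called between genotypes below is Gm12840 (ENSMUSG00000086320, chr4:117700188-117700923 on GRCm38, plus strand) and Gm20186 (ENSMUSG00000106874, chr6:18845910-18848207, minus strand). Their longest transcripts aligned over 463 bases at 97.0% identity with 12 mismatches. The stretches below are bases 280 to 399 of the 627-base Gm12840 transcript and bases 308 to 427 of the 741-base Gm20186 transcript, with the bases that differ in capitals.
Gm12840: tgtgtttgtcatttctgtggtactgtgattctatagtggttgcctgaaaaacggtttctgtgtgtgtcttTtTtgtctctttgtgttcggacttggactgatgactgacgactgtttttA
Gm20186: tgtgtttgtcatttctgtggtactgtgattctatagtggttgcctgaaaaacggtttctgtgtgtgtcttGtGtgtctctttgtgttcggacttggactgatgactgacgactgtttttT
Another pair is 2900097C17Rik (ENSMUSG00000102869, chr2:156388065-156392979, minus strand), which is Norad, a cytoplasmic RNA that binds Pumilio proteins, and Gm7292. All of the Gm7292 transcript was covered by an alignment of 2537 positions at 99.2% identity to Norad, with 9 mismatches. The stretches below are bases 1423 to 1542 of Gm7292 and bases 1450 to 1569 of Norad, again with differing bases in capitals.
Gm7292: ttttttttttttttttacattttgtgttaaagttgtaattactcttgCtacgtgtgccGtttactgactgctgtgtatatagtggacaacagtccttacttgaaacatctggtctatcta
2900097C17Rik: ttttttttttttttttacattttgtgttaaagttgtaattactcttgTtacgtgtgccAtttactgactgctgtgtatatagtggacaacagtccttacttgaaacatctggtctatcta
With 3 differing bases in 120 in the former pair and 2 in 120 in the latter, most reads from these stretches hold few bases that tell the copies apart, and the values of these 4 genes are uncertain in that sense.

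Levels between genes were compared per kb of exon. The highest were Gm42428 with 43903 normalised read counts per kb (302 bases, a single exon), Gm42031 with 4574, Gm4316 with 1533, Gm12840 with 1492 and Gm29562 with 1057. All 5 shared 51.0 to 100% of their transcript with other genes, so their levels cannot be assigned to 1 locus. Gm20186, at 1005, shares 62.3%. Among those that share less than 50%, the highest were AW112010 at 960 per kb, Malat1 at 646, 4930461G14Rik at 592, Gm26825 at 469 and Tmem250-ps at 411. Of the other known lincRNAs, Snhg6 stood at 272 and 1700020I14Rik at 270. 1700020I14Rik is Cyrano, a conserved RNA that directs the destruction of the microRNA miR-7. Neat1 was lower, at 15.3 per kb, Pvt1 at 12.3, and Mir17hg, the host of the miR-17 to miR-92 cluster, at 6.06 per kb. The median over all 132 was 31.3 per kb.

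The comparison of FICZ with DMSO in WT asks which lincRNAs moved within 4 h of the ligand in organoids with an intact receptor gene. Of the 132, 19 rose and 7 fell (limma, adjusted p under 0.05 over 12741 genes), which is 14.4% and 5.30% of the lincRNAs. Among all genes tested the corresponding shares were 15.1% higher and 15.7% lower. The median log2 change was 0.05 over the lincRNAs and -0.01 over all genes. In bulk organoid RNA, fewer cells of a type and less RNA per cell cannot be told apart. The lincRNAs are measured less precisely than most genes, with a median standard error of 0.248 on the log2 scale against 0.0979 over all genes. Among genes at the level of most lincRNAs, with a mean of 20 to 200, 11.3% of 97 lincRNAs rose and 3.09% fell, and 9.42% of 2304 protein-coding genes rose and 3.82% fell.

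2610035D17Rik (ENSMUSG00000087259, chr11:113043895-113201838, minus strand, 4 exons) rose in WT and was not called in AHR KO, and the difference between these changes did not pass (1.27, adjusted p = 0.057). It had 135 and 105 normalised read counts in WT DMSO, 299, 297 and 303 in WT FICZ, 88.2 and 116 in AHR KO DMSO, and 110 and 99.9 in AHR KO FICZ. The 3 WT FICZ libraries were within 6 counts of each other and stood apart from the other 6 libraries. The log2 change in WT was 1.33 ± 0.157 (SE, limma adjusted p = 0.00041), from 120 ± 20.8 (SD, n = 2) to 300 ± 2.79 (SD, n = 3) counts. In AHR KO it was 0.05 ± 0.172 (SE, adjusted p = 0.864). The nearest protein-coding gene, Slc39a11, which encodes a zinc transporter of the same strand 43015 bases away, changed by 0.18 in WT (adjusted p = 0.137) and by 0.43 in AHR KO (adjusted p = 0.0111).

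Gm45397 (ENSMUSG00000109973, chr7:137557112-137564588, minus strand, 3 exons) was the lincRNA with the lowest log2 change in WT. It had 210 and 150 counts in WT DMSO and 82.0, 65.7 and 58.8 in WT FICZ, against 259 and 231 in AHR KO DMSO and 188 and 186 in AHR KO FICZ. All 3 WT FICZ libraries lay below all 6 others. The log2 change was -1.37 ± 0.183 (SE, adjusted p = 0.000676) in WT and -0.39 ± 0.201 (SE, adjusted p = 0.203) in AHR KO. Its nearest protein-coding gene, Glrx3, a glutaredoxin 88518 bases away, changed by -0.20 in WT (adjusted p = 0.0156).

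Gm3054 (ENSMUSG00000079174, chr5:137154029-137166070, minus strand, 2 exons) had 43.8 and 47.0 counts in WT DMSO and 140, 101 and 113 in WT FICZ. In AHR KO it had 22.3 and 33.1 with DMSO and 59.9 and 44.4 with FICZ. The FICZ libraries of each genotype lay above its DMSO libraries, and the log2 changes were 1.35 (adjusted p = 0.00285) in WT and 0.90 (adjusted p = 0.0398) in AHR KO. It lies 4707 bases from Muc3, which encodes a membrane-bound intestinal mucin on the same strand. Muc3 rose in WT, by 0.87 (adjusted p = 0.00941), and its change in AHR KO was 0.17 (adjusted p = 0.636).

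**Figure D1:**
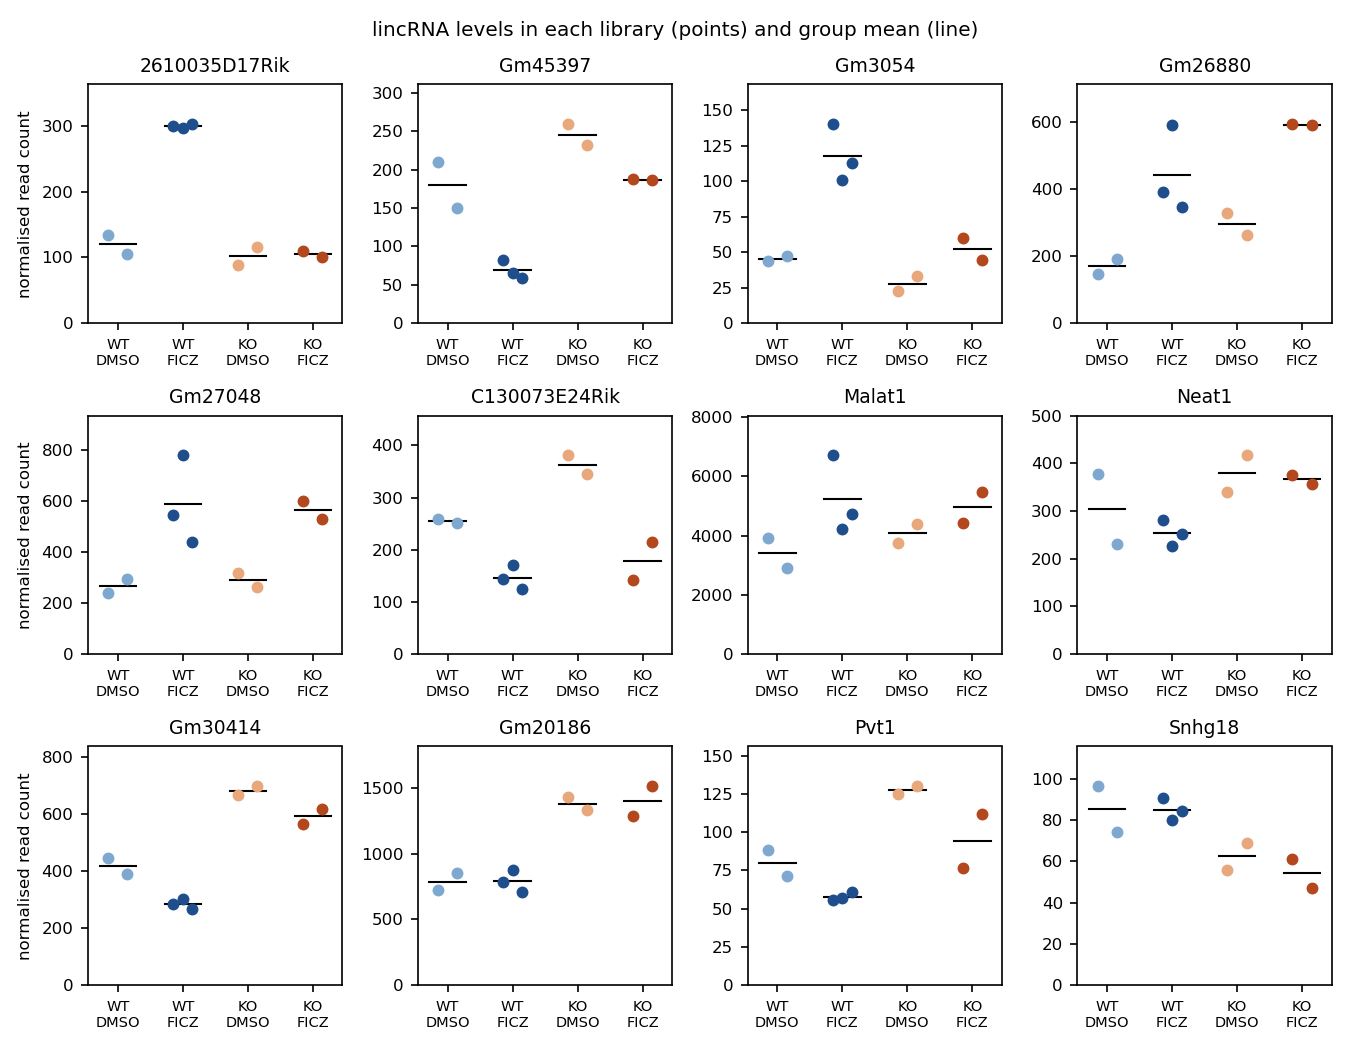
Normalised read counts of 12 lincRNAs in each library (points, y axis from 0) by group (x axis; KO stands for AHR KO), with the group mean as a line. 2610035D17Rik is at 297 to 303 in the WT FICZ libraries and at 88.2 to 135 in the other 6, while Gm20186 and Gm30414 separate the genotypes under both treatments.

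The 6 lincRNAs that rose in both genotypes were Gm3054, Gm26880, Gm27048, Gm26619, Gm10874 and Tmem250-ps, and the other 13 that rose in WT did not pass in AHR KO. Gm26880 (chr4:146509094-146511764, minus strand) had 147 and 192 counts in WT DMSO, 391, 590 and 345 in WT FICZ, 329 and 261 in AHR KO DMSO and 592 and 589 in AHR KO FICZ. Its log2 changes were 1.35 in WT (adjusted p = 0.00136) and 1.01 in AHR KO (adjusted p = 0.0152). Gm27048 (chr8:80933534-80938667, minus strand) had 240 and 292 counts in WT DMSO and 546, 779 and 438 in WT FICZ, with 319 and 261 in AHR KO DMSO and 599 and 529 in AHR KO FICZ. Its changes were 1.10 (adjusted p = 0.00345) and 0.96 (adjusted p = 0.0168). In both of these the FICZ libraries lay above the DMSO libraries in each genotype, and WT FICZ replicate 2 was the highest WT library. That library was the highest of the 3 WT FICZ libraries for 9 of the 19 lincRNAs that rose, replicate 1 for 7 and replicate 3 for 3. Gm26582 (chr5:92043064-92055960, plus strand), which overlaps the kinase gene Cdkl2 on the opposite strand, had 22.4 and 18.9 counts in WT DMSO and 48.4, 58.6 and 35.0 in WT FICZ. It rose in WT by 1.14 (adjusted p = 0.0147), and its change in AHR KO was 0.79 (adjusted p = 0.106). Cdkl2 itself changed by -0.16 in WT (adjusted p = 0.388).

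The remaining lincRNAs that rose in WT had log2 changes of 0.26 in 2900097C17Rik to 1.10 in Gm12498. Among those that fell, C130073E24Rik (chr8:50743291-50916997, minus strand, 7 exons) had 258 and 251 counts in WT DMSO and 144, 170 and 124 in WT FICZ, and its log2 change was -0.81 (adjusted p = 0.00822). BC002059 (chr17:16951539-16974157, plus strand) had 252 and 258 counts in WT DMSO and 153, 172 and 176 in WT FICZ (log2 change -0.61, adjusted p = 0.00411). The nearest protein-coding gene, Zfp960, a zinc finger gene 89956 bases away, fell by 0.39 (adjusted p = 0.00957). Gm30414 (chr1:7497968-7518149, plus strand) had 447 and 390 counts in WT DMSO and 283, 302 and 266 in WT FICZ (log2 change -0.56, adjusted p = 0.00215). Gm16211, which shares 61.9% of its transcript with other genes, changed by -0.51 (adjusted p = 0.0354), and Gm42428, the member with the highest level, by -0.48 (adjusted p = 0.0162).

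Without WT DMSO replicate 2, 9 lincRNAs were called (15.6% of all genes), and without WT DMSO replicate 3, 15 were (17.8% of all genes), against 26 lincRNAs and 30.8% of all genes with every library. In fits that leave a group with 1 library, that library is assumed to vary like the other groups. The 19 lincRNAs that rose had a median GC content of 48.9% and the 7 that fell of 39.1%, and with a trend on GC content and length removed from each library 18 rose and 4 fell (8.5% and 9.9% of all genes).

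**Figure D2:**
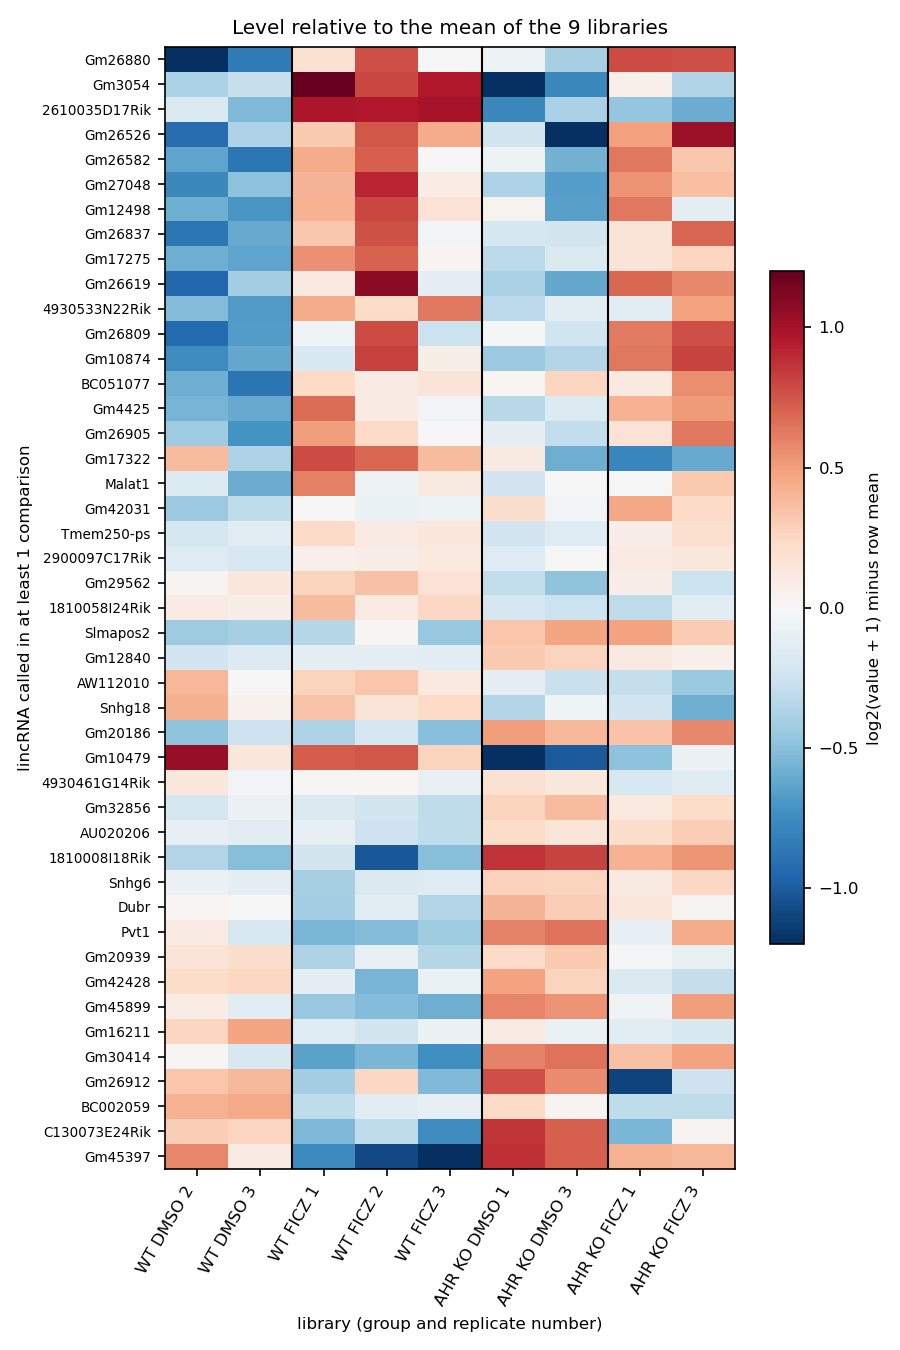
Level of the 45 lincRNAs called in at least 1 of the comparisons (rows, ordered by log2 change with FICZ in WT) in each library (columns), as log2(value + 1) minus the mean of the 9 libraries (colour). The upper rows run from blue in the WT DMSO libraries to red in most WT FICZ and AHR KO FICZ libraries, and 2610035D17Rik is red in the 3 WT FICZ libraries and blue in the other 6.

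The AHR binds DNA with its partner ARNT at a motif with the core GCGTG. RefSeq promoter windows (GRCm38.p6, 300 bases from 250 before to 50 after the start) were matched by symbol for 59 of the lincRNAs, and for 46 the window's start lay within 100 bases of the GENCODE start. GCGTG was searched on both strands, so that CACGC was counted too. It stood in 16 of the 46 windows and in 32.4% of all 32851 windows in the table. Of the lincRNAs that rose with FICZ in WT, 4 had such a window and 0 of these held the motif. A match is a description of letters, and its absence says only that they are not in this window. The windows are shown for 2610035D17Rik (chr11:113201789-113202088, minus strand), since its rise was seen in WT, and for Snhg18 (chr15:32244613-32244912, minus strand), which is described with the genotype comparison; capitals mark the motif.
2610035D17Rik: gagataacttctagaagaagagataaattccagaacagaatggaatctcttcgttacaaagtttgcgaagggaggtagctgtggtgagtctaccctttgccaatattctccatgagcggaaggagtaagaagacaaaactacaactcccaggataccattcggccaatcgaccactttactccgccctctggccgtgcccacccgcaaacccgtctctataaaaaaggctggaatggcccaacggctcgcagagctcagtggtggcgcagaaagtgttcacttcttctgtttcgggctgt
Snhg18: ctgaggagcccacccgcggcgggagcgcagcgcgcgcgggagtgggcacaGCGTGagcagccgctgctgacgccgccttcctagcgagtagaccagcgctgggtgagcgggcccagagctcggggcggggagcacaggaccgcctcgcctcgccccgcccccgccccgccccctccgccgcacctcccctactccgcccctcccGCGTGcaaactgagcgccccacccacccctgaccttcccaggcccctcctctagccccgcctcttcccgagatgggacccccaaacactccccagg
The 2610035D17Rik window holds 0 matches and the Snhg18 window holds 2.

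The comparison of FICZ with DMSO in AHR KO asks which lincRNAs changed with the ligand in organoids labelled as lacking the receptor. Of the 132, 7 rose and 6 fell, which is 5.30% and 4.55%, where 10.2% of all genes were higher and 9.48% were lower. At a mean of 20 to 200, 5.15% of the lincRNAs and 5.12% of the protein-coding genes were called. The median log2 change was -0.01 over the lincRNAs and -0.01 over all genes. Gm26526 (chr7:39588518-39591679, minus strand) had the highest log2 change, with 17.6 and 6.83 counts in AHR KO DMSO and 30.1 and 44.1 in AHR KO FICZ (1.63 ± 0.446 SE, adjusted p = 0.0301). In WT it had 10.7 and 16.0 with DMSO and 26.4, 36.0 and 29.0 with FICZ, a change of 1.14 that did not pass (adjusted p = 0.0567). Gm26619 (chr13:97751112-97760965, plus strand) had 178 and 152 counts in AHR KO DMSO and 375 and 347 in AHR KO FICZ (log2 change 1.13, adjusted p = 0.0368). Gm10874 (chr5:138363719-138388287, plus strand) had 25.6 and 27.3 and then 55.1 and 62.4 counts (1.12, adjusted p = 0.0402). Both rose in WT too, by 1.03 (adjusted p = 0.0252) and 0.92 (adjusted p = 0.0429).

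Among the lincRNAs that fell in AHR KO, C130073E24Rik had 381 and 345 counts with DMSO and 143 and 215 with FICZ (log2 change -1.05, adjusted p = 0.00738). Gm26912 (chr12:110842276-110845216, minus strand) had 36.0 and 31.1 and then 9.01 and 17.2 counts (-1.35, adjusted p = 0.0391). 4930461G14Rik, a 3-exon gene at chr9:58455122-58469635, had 564 and 544 and then 434 and 450 counts (-0.33, adjusted p = 0.0302). BC002059 changed by -0.44 (adjusted p = 0.0411), Gm42428 by -0.60 (adjusted p = 0.0158) and Gm12840 by -0.21 (adjusted p = 0.0453). In place of 13 lincRNAs and 19.7% of all genes, 1 lincRNA was called without AHR KO DMSO replicate 1 (3.3% of all genes), 4 without AHR KO DMSO replicate 3 (9.9%), 5 without AHR KO FICZ replicate 1 (12.2%) and 4 without AHR KO FICZ replicate 3 (9.6%). There were 8 without WT DMSO replicate 2 (16.9%) and 8 without WT DMSO replicate 3 (16.8%). With the GC and length trend removed, 3 rose and 1 fell (2.1% and 3.2% of all genes).

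The WT and AHR KO ligand comparisons share no library, so that they can be set side by side. Each gene's spread was estimated from all 9 libraries, however, so the calls in both are not fully independent. Of the lincRNAs called, 9 were called in the same direction in both, which is 34.6% of the 26 in WT and 69.2% of the 13 in AHR KO. Over all genes the shares were 49.2% and 77.1%. The 9 were Gm3054, Gm26880, Gm27048, Gm26619, Gm10874 and Tmem250-ps, which rose, and C130073E24Rik, BC002059 and Gm42428, which fell. Of the 26 lincRNAs called in WT, 26 had the same sign in AHR KO, where 94.6% of all genes called in WT did. Of the 13 called in AHR KO, 12 had the same sign in WT, where 97.9% of all genes called in AHR KO did, and the exception was Gm12840 (0.08 in WT). Called or not, 100 of the 132 (75.8%) had the same sign in both, against 77.8% of all genes. The correlation of the changes was 0.686 across the 132 lincRNAs and 0.584 across all genes, which are not independent replicates.

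**Figure D3:**
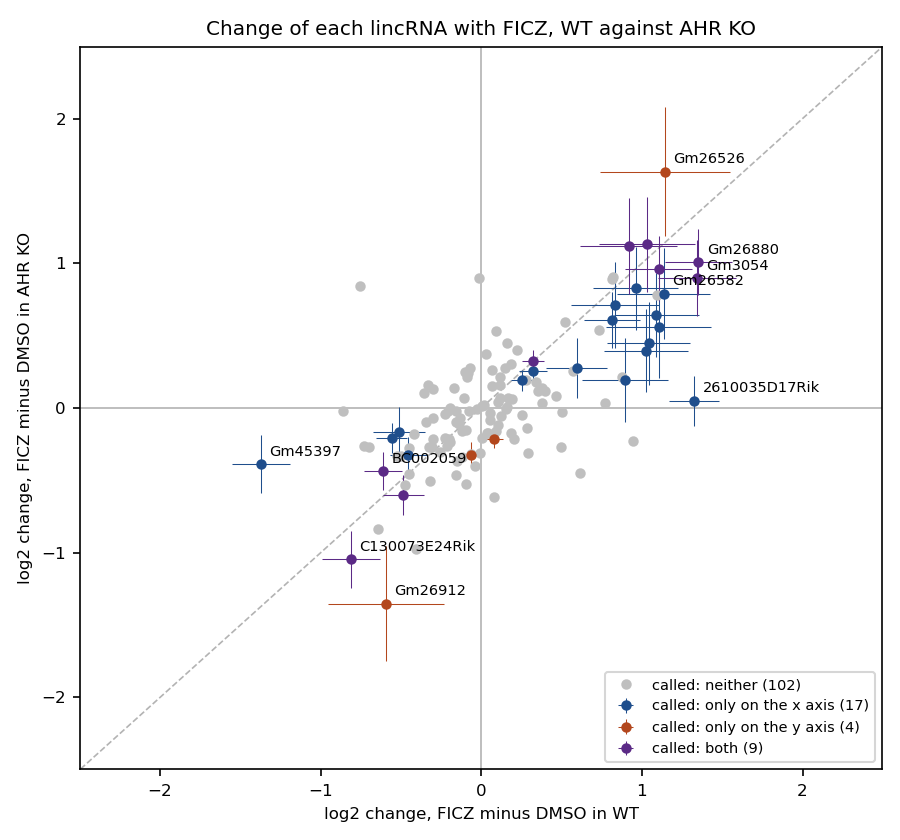
Log2 change with FICZ in WT (x axis) against that in AHR KO (y axis) for the 132 lincRNAs, coloured by the comparison in which they were called, with bars of 1 standard error for those called and a dashed line of equal change. Of the called lincRNAs, Gm12840 lies on opposite sides of 0 (0.08 on the x axis, -0.21 on the y axis), and the 26 called in WT lie on the same side in both (94.6% of all genes called in WT do), with 2610035D17Rik at 1.33 on the x axis and 0.05 on the y axis and Gm45397 at -1.37 and -0.39.

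The interaction subtracts the change in AHR KO from the change in WT and tests whether the ligand response differed between genotypes. No lincRNA passed (limma, adjusted p under 0.05), where 0.447% of all genes tested did. At an unadjusted p under 0.05 there were 7 of the 132 lincRNAs, or 5.30%, where 7.47% of all genes tested were. 2610035D17Rik had the lowest adjusted p, with a difference of 1.27 ± 0.233 (SE, adjusted p = 0.057). Over the alternatives tried its adjusted p ran from 0.0425 to 0.239. It was the 1 lincRNA called with a pseudocount of 10, with robust variances and with the GC and length trend removed. It was also the 1 called with the label of genotype and replicate number as a random effect. The labels do not say what that number stands for. For Gm45397 the difference was -0.98 ± 0.272 (SE, adjusted p = 0.274). For the lincRNAs that moved in both genotypes the differences were smaller: 0.34 ± 0.311 in Gm26880, 0.14 ± 0.306 in Gm27048 and 0.45 ± 0.359 in Gm3054 (SE). With a median standard error of 0.367 for this term, differences of the size seen in those 3 could not be told from 0.

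The comparison of AHR KO with WT under DMSO asks which lincRNAs differ with genotype without added ligand. Of the 132, 7 were higher and 2 lower in AHR KO, which is 5.30% and 1.52%, where 4.21% of all genes were higher and 4.83% lower. The median log2 difference was 0.14 over the lincRNAs and -0.01 over all genes. At a mean of 20 to 200 it was 0.08 over 97 lincRNAs and 0.06 over 2304 protein-coding genes, and at 200 or more it was 0.24 over 35 lincRNAs and -0.02 over 8979 protein-coding genes. Gm20186 had 724 and 850 counts in WT DMSO and 1434 and 1329 in AHR KO DMSO (log2 difference 0.82 ± 0.118 SE, adjusted p = 0.00225). Its near-copy Gm12840 had 789 and 829 in WT DMSO and 1154 and 1119 in AHR KO DMSO (0.49, adjusted p = 0.00146). Gm20186 starts beside Lsm8, which encodes a protein of the U6 snRNP ring, divergent and 372 bases away. Lsm8 differed by 0.32 under DMSO (adjusted p = 0.0959) and was higher in AHR KO by 0.38 under FICZ (adjusted p = 0.0198).

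Gm30414 had 667 and 697 counts in AHR KO DMSO against the 447 and 390 of WT DMSO given above (0.71, adjusted p = 0.0025). Slmapos2 (chr14:26389199-26395521, plus strand) had 317 and 323 in WT DMSO and 536 and 593 in AHR KO DMSO (0.81, adjusted p = 0.00706). Gm32856 (chr8:129263641-129282844, plus strand) had 360 and 396 and then 501 and 541 (0.46, adjusted p = 0.0162). AU020206 (chr7:75769038-75782099, minus strand) had 864 and 847 and then 1078 and 1027 (0.30, adjusted p = 0.0496), and Gm42031, most of which is shared with other genes, differed by 0.46 (adjusted p = 0.014). Lower in AHR KO were Gm10479, with 52.4 and 27.3 in WT DMSO and 9.11 and 11.9 in AHR KO DMSO (-1.77, adjusted p = 0.0172), and Gm29562, with 959 and 1027 and then 766 and 671 (-0.47, adjusted p = 0.0322). Both of these shared all of their transcript with other genes. With the 27 lincRNAs that share at least 50% of their transcript left out, 4 of the remaining 105 were called and all were higher in AHR KO. Fewer lincRNAs, and fewer of all genes, were also called when any 1 of the WT DMSO or AHR KO DMSO libraries was left out. Such a fit leaves that group with 1 library. With every library, 9.05% of all genes were called.

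Under FICZ, 13 of the 132 lincRNAs were higher and 7 lower in AHR KO than in WT, which is 9.85% and 5.30%. The corresponding shares of all genes tested were 9.48% higher and 10.5% lower. The median log2 difference was 0.03 over the lincRNAs and -0.004 over all genes. Gm45397 (log2 difference 1.44 ± 0.183 SE, adjusted p = 0.000401), 2610035D17Rik (-1.51 ± 0.157 SE, adjusted p = 0.00011) and Gm3054 (-1.16, adjusted p = 0.00747) were among them. These differences use the same WT FICZ libraries as the ligand comparison in WT, where the same 3 lincRNAs were called, and are not separate evidence. Muc3, the neighbour of Gm3054, was lower by 1.40 on the log2 scale (log2 difference -1.40, adjusted p = 0.000864). Gm30414 had 566 and 618 counts in AHR KO FICZ against 283, 302 and 266 in WT FICZ (1.06, adjusted p = 4.75e-05). Gm20186 had 1286 and 1513 against 781, 873 and 711 (0.83, adjusted p = 0.000461).

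AU020206 was at 1074 and 1139 against 865, 778 and 748 (0.47, adjusted p = 0.00152). Dubr had 301 and 282 against 207, 251 and 215 (0.38, adjusted p = 0.0356), and 1810058I24Rik was lower in AHR KO by 0.46 on the log2 scale (-0.46, adjusted p = 0.00748).

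1810008I18Rik (chr7:65803111-65806449, plus strand) had 15.5, 8.53 and 12.5 counts in WT FICZ and 24.6 and 26.7 in AHR KO FICZ (1.05, adjusted p = 0.0459). Its nearest protein-coding gene, Pcsk6, a proprotein convertase of the same strand 55285 bases away, was higher in AHR KO by 0.66 (adjusted p = 0.000326). Gm45899 (chr8:75176458-75177733, plus strand) had 78.5, 74.8 and 71.5 and then 105 and 153 counts (0.75, adjusted p = 0.0144), and all of its transcript is shared with other genes. Gm17322 (chr9:57998041-58007451, plus strand), which overlaps Cyp11a1 on the same strand, had 49.3, 46.2 and 36.9 counts in WT FICZ and 16.0 and 18.3 in AHR KO FICZ (-1.31, adjusted p = 0.0178). Cyp11a1, the steroid side-chain cleavage enzyme, had means of 0.450 in WT FICZ and 0.432 in AHR KO FICZ. AW112010 (chr19:11047612-11055808, minus strand), an RNA known from activated immune cells, had 911, 951 and 823 counts in WT FICZ and 620 and 558 in AHR KO FICZ (-0.60, adjusted p = 0.00499). Its neighbour Ms4a8a, 11663 bases away, was lower in AHR KO both under FICZ (-1.38, adjusted p = 0.000295) and under DMSO (-1.14, adjusted p = 0.00425), whereas AW112010 under DMSO differed by -0.39 (adjusted p = 0.087).

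The genotype comparisons under DMSO and under FICZ share no library, but they share the estimate of each gene's spread, so their calls are not fully independent. Of the 9 lincRNAs called under DMSO, 8 were called in the same direction under FICZ (88.9% of 9 and 40.0% of 20), where over all genes the shares were 83.5% and 37.9%. The exception was Gm10479, with a difference of -0.86 under FICZ (adjusted p = 0.11). Of the 20 lincRNAs called under FICZ, 20 had the same sign under DMSO, where 94.4% of all genes called under FICZ did. Over the 132, 71.2% had the same sign in both, against 73.5% of all genes. Under FICZ the count was 13 without WT FICZ replicate 1 (14.8% of all genes), 13 without AHR KO FICZ replicate 1 (15.2%) and 8 without AHR KO FICZ replicate 3 (10.4%), against 2544 of the 12741 genes with every library.

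**Figure D4:**
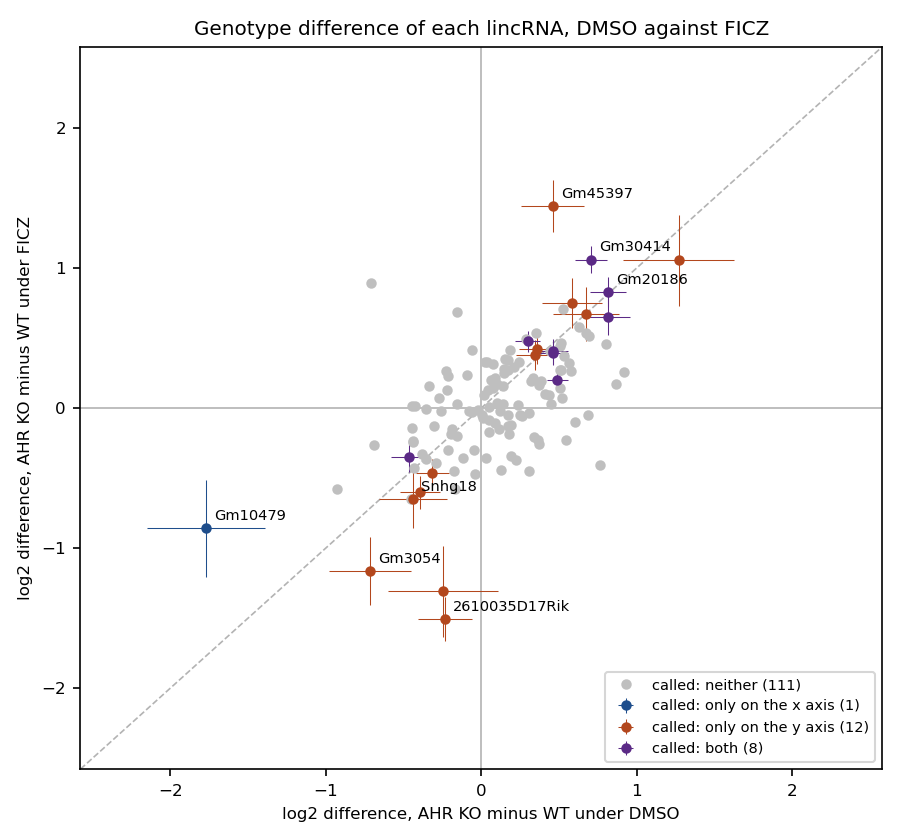
Log2 difference between AHR KO and WT under DMSO (x axis) and under FICZ (y axis) for the 132 lincRNAs, coloured by the comparison in which they were called, with bars of 1 standard error for those called and a dashed line of equal difference. Gm30414 and Gm20186 lie to the upper right in both comparisons, while Gm45397, at 1.44 on the y axis, and 2610035D17Rik, at -1.51, are farther from 0 under FICZ than under DMSO.

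Malat1, Neat1, Norad, Cyrano, Pvt1, Mir17hg, Snhg6, Snhg12, Snhg18 and Snhg20 were described whatever their values. Other lincRNAs with names, such as Lockd and Epb41l4aos, were not in that set. Malat1 (chr19:5795690-5802672, minus strand) had 3937 and 2921 counts in WT DMSO, 6716, 4218 and 4747 in WT FICZ, 3765 and 4394 in AHR KO DMSO and 4423 and 5489 in AHR KO FICZ. The FICZ libraries lay above the DMSO libraries in each genotype, with a log2 change of 0.60 in WT (adjusted p = 0.0368, range 0.0151 to 0.269 over the alternatives) and 0.28 in AHR KO (adjusted p = 0.38). Neat1 (chr19:5824708-5845478, minus strand) had 377 and 230 counts in WT DMSO and 281, 227 and 251 in WT FICZ, and the treatments overlapped. It had 341 and 417 in AHR KO DMSO and 376 and 357 in AHR KO FICZ. Its difference between genotypes was 0.36 under DMSO (adjusted p = 0.333) and 0.54 under FICZ (adjusted p = 0.0718). Norad (2900097C17Rik) had 695 and 677 counts in WT DMSO and 806, 816 and 836 in WT FICZ (0.26, adjusted p = 0.0188), and its change in AHR KO was 0.19 (adjusted p = 0.103). Cyrano (chr2:119594297-119607502, plus strand) stayed between 1920 and 2444 counts in all 9 libraries and was called in no comparison.

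Pvt1 (chr15:62037986-62378096, plus strand), a host of microRNAs downstream of the proto-oncogene Myc, had 88.0 and 71.6 counts in WT DMSO, 55.8, 56.8 and 60.7 in WT FICZ, 125 and 130 in AHR KO DMSO and 76.7 and 112 in AHR KO FICZ. It was higher in AHR KO by 0.67 under FICZ (adjusted p = 0.0345), and under DMSO the difference was 0.67 (adjusted p = 0.0797). Its change with FICZ was -0.45 in each genotype (adjusted p = 0.103 in WT and 0.16 in AHR KO). Myc, 47612 bases away, fell with FICZ in WT by 0.31 (adjusted p = 0.00525), differed between genotypes by -0.04 under DMSO (adjusted p = 0.785) and was higher in AHR KO by 0.20 under FICZ (adjusted p = 0.0493). Mir17hg had 14.3 to 28.9 counts over the 9 libraries and was called in no comparison.

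Snhg18 (ENSMUSG00000096956, chr15:32240565-32244662, minus strand), a small nucleolar RNA host, had 96.4 and 74.3 counts in WT DMSO, 90.7, 80.0 and 84.6 in WT FICZ, 55.9 and 69.0 in AHR KO DMSO and 61.0 and 47.2 in AHR KO FICZ. All 4 AHR KO libraries lay below all 5 WT libraries. The difference was -0.65 under FICZ (adjusted p = 0.0442, range 0.0334 to 0.262 over the alternatives) and -0.44 under DMSO (adjusted p = 0.256). It starts 148 bases from Sema5a, a divergent gene for a semaphorin that guides cell and axon growth, within the window printed above. Sema5a was lower in AHR KO by 0.93 on the log2 scale under DMSO (log2 difference -0.93, adjusted p = 0.00176) and by 0.89 under FICZ (-0.89, adjusted p = 0.000501). Snhg6 (chr1:9941959-9944118, minus strand) was higher in AHR KO, with 234, 273 and 278 counts in WT FICZ and 332 and 367 in AHR KO FICZ (0.42, adjusted p = 0.0184). Snhg12 and Snhg20 were called in no comparison.

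The nearest protein-coding genes were read for most of the lincRNAs named, in the same comparisons. They were not read for Gm42031, Gm4316, AU020206, Dubr, 1810058I24Rik, Gm12498, Gm26825, Gm7292 and Tmem250-ps, which the counts leave out. With FICZ in WT, 3 of the 11 neighbours tested were called, all in the direction of the lincRNA, where 30.8% of all genes were called. With FICZ in AHR KO 0 of 8 were (19.7% of all genes), and between genotypes under DMSO 0 of 5 (9.05%). Between genotypes under FICZ 8 of 13 were called (2544 of the 12741 genes), 7 in the direction of the lincRNA and 1 in the opposite direction (Slc39a11, higher in AHR KO by 0.31, adjusted p = 0.0242, where 2610035D17Rik was lower). A further 8 neighbour genes were too low to be tested. These comparisons share libraries and some neighbours, so the counts are not independent. The neighbours given above are those called together with their lincRNA and some others. Neighbours also moved where the lincRNA did not pass. Frmd8, 4224 bases from Neat1, rose with FICZ by 0.64 in WT (adjusted p = 0.00209) and by 0.60 in AHR KO (adjusted p = 0.00854). Slmap, convergent and 17647 bases from Slmapos2, fell by 0.75 in WT (adjusted p = 0.000723) and by 0.61 in AHR KO (adjusted p = 0.00637), and it was called in neither genotype comparison, where Slmapos2 was. Prom1, 34588 bases from Gm42428, was higher in AHR KO by 0.47 under DMSO (adjusted p = 0.0197) and by 0.63 under FICZ (adjusted p = 0.00114).

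Lists of genes with roles near these RNAs were read beside them from the same fit, by counts and medians. Over all genes tested, 15.1% rose and 15.7% fell with FICZ in WT and 10.2% rose and 9.48% fell in AHR KO. Of 14 small nucleolar RNA hosts of any gene type that were tested, 0 rose and 1, Gas5, fell with FICZ in WT and in AHR KO. None was called between genotypes under DMSO, where 9.05% of all genes were. Under FICZ Snhg6 was higher and Snhg18 lower in AHR KO, where 9.48% of all genes were higher and 10.5% lower. Of the 12 proteins that build paraspeckles with Neat1, 1 rose (Rbm14) and 8 fell with FICZ in WT, with a median log2 change of -0.29, and 1 rose and 6 fell in AHR KO, with a median of -0.27. Sfpq, a core paraspeckle protein, changed by -0.49 in WT (adjusted p = 0.000272) and by -0.47 in AHR KO (adjusted p = 0.0019), and Nono by -0.31 and -0.28 (adjusted p = 0.00732 and 0.029). Of the 16 nuclear speckle and splicing factors, 1 rose (Srrm2) and 9 fell in WT, and 1 rose and 8 fell in AHR KO, with medians of -0.22 and -0.205. Of 19 factors of the nuclear exosome and noncoding RNA turnover, 3 rose and 7 fell in WT and 3 rose and 6 fell in AHR KO, with medians of -0.14 and -0.06. Dis3, a catalytic subunit of the exosome, changed by -0.40 in WT (adjusted p = 0.00102) and by -0.27 in AHR KO (adjusted p = 0.0173). No gene of these 3 lists passed for the interaction, where 0.447% of all genes tested did.

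Other gene types were set beside the lincRNAs at the same level, a mean of 20 to 200. With FICZ in WT, 11 of the 97 lincRNAs rose and 3 fell, and of 77 TEC genes (a GENCODE type for loci that await experimental evidence) 10 rose and 1 fell. Of 61 antisense genes 6 rose and 0 fell, and of 63 processed transcripts 6 rose and 2 fell. Of 78 processed pseudogenes 3 rose and 12 fell, and in AHR KO 5 rose and 11 fell. Between genotypes under DMSO, 1 of the 97 lincRNAs was called against 213 of 2304 protein-coding genes (9.24%), and under FICZ 8 of 97 (8.25%) against 426 (18.5%). The shares under DMSO and FICZ were 1.30% and 6.49% for TEC genes and 1.64% and 11.5% for antisense genes. They were 4.76% and 14.3% for processed transcripts and 5.13% and 11.5% for processed pseudogenes. The median standard error under DMSO was 0.294 over these lincRNAs and 0.24 over these protein-coding genes. Of the 35 lincRNAs with a mean of 200 or more, 8 were called under DMSO (22.9%, 7 higher and 1 lower in AHR KO) and 12 under FICZ (34.3%), where 9.93% and 22.1% of 8979 protein-coding genes at that level were. Gm20186, Gm12840, Gm42031 and Gm29562, which share 62.3 to 100% of their transcript, are 4 of the 8. Of the 23 lincRNAs at that level that share less than 50%, 4 were called under DMSO (17.4%) and 8 under FICZ (34.8%). Of 9 sense intronic genes 1 rose with FICZ in WT. Between genotypes 1 was lower in AHR KO under DMSO (11.1%) and 2 were lower under FICZ (22.2%). These are counts side by side, and the differences between gene types were not tested.

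**Figure D5:**
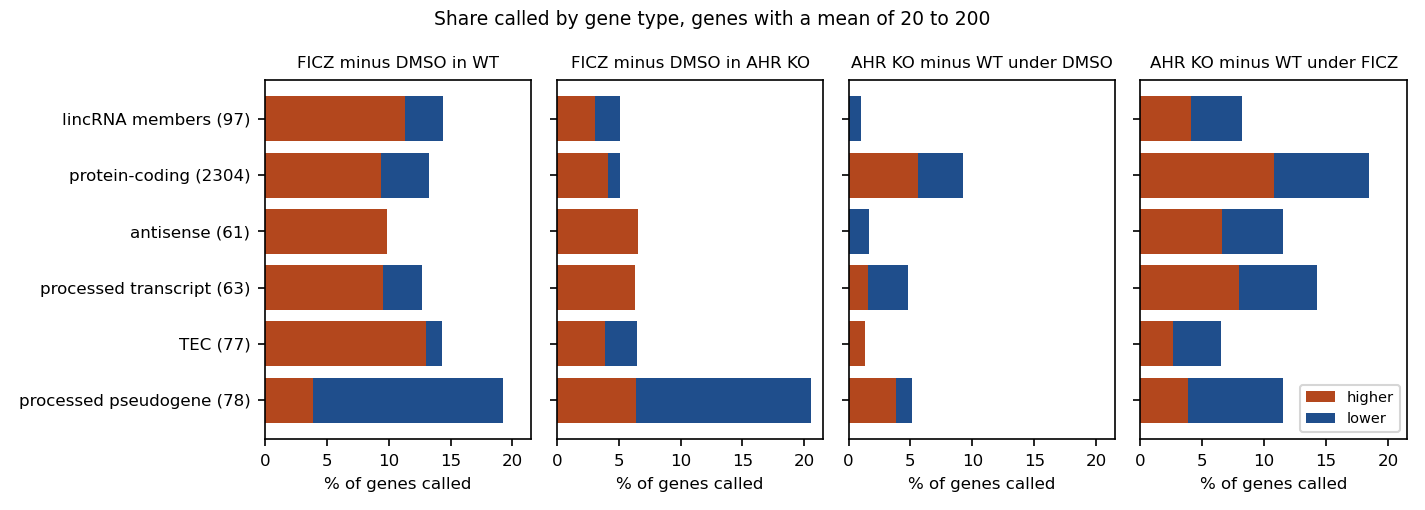
Percentage of genes called higher (red-brown) and lower (blue) in each of 4 comparisons (panels) by gene type (rows, with the number of genes tested), for genes with a mean of 20 to 200 normalised read counts. The lincRNA bar ends at 14.4% for FICZ in WT and at 1.03% for genotype under DMSO, where the protein-coding bars end at 13.2% and 9.24%. The bars of the other gene types end at 1.30 to 5.13% for genotype under DMSO.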

How the data were processed

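RNA-seq had been run on 9 libraries, and the authors deposited 1 table of normalised read counts, here treated as a signal because the values are not whole numbers. The submitters' processing notes name RSEM 1.2.31, STAR 2.5.2a, DESeq2 1.16.1 and GRCm38, while the study's methods name summarizeOverlaps and DESeq2 for stranded libraries depleted of ribosomal RNA. How the values were scaled is not given in the sources used here. Counts per gene were not recovered, so no count model was applied and depth is known only as the deposited sums, 23177058 to 25033827 per library. Lowly expressed lincRNAs are limited by counting, and a few reads change their values.

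Identifiers were matched to GENCODE M21 (48435 of 48795). Values were transformed as log2(value + 1), on which scale changes of low genes are understated. The 12741 genes with a mean of 10 or more were fitted with limma 3.58.1 in R 4.3.3 (4 groups as coefficients, all 9 libraries, eBayes with trend) for 5 contrasts. Genes with a Benjamini-Hochberg adjusted p under 0.05 over all genes tested were called, two-sided. The script was tested on simulated data. Sequence sharing was measured with blastn 2.17.0 (95% identity, 100 bases). The members and gene lists were chosen with earlier results of these data known. Named genes were a chosen set of known lincRNAs, for each contrast up to 5 called members with the highest and 5 with the lowest change and no overlap between groups, and the 5 highest per kb of exon. The nearest protein-coding gene of each was read other than for Gm42031 and Gm4316, and those not called are given mostly as counts. AU020206, Dubr, 1810058I24Rik, Gm12498, Gm26825, Gm7292 and Tmem250-ps, and those at the limit of the mean, were named after their values were seen. Alternatives were other pseudocounts, filters, scalings and fits, removal of a GC and length trend, a replicate block, each library left out, and other limits on the members.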

Additional observations from a re-analysis of the deposited data

How the results depend on the processing

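Each of 41 changes of named lincRNAs was fitted under 20 or 21 other settings and kept its direction in those, and 12 of them passed in all that were run for them, among them those of 2610035D17Rik, Gm45397, Gm26880 and Gm27048 with FICZ in WT and of Gm30414 and Gm20186 between genotypes. Others often missed the threshold: 1810008I18Rik between genotypes under FICZ in 13 of 20 settings, BC002059 in AHR KO in 12 of 21, Gm10874 and Gm26912 in AHR KO, Gm16211 in WT and Snhg18 between genotypes under FICZ in 10 of 20 each, and Malat1 in WT in 10 of 21. With FICZ in WT, 26 calls (19.7% of the lincRNAs, 30.8% of all genes) became 16 of 47 lincRNAs with a mean of 100 or more (34.0%, and 38.2% of all genes), and 16 with the replicate block and GC and length trend removed together (12.1% and 14.9%). In AHR KO, 13 (19.7% of all genes) became 6 with no filter on low values (7.7% of all genes), 4 with the GC and length trend removed (5.4%) and 3 with that and the replicate block (4.0%). For the interaction, 1 lincRNA was called in each of 4 settings (0.5% of all genes in each). These were a pseudocount of 10, robust eBayes, the label of genotype and replicate number as a random effect, and the GC and length trend removed. Between genotypes under DMSO, 9 (9.05% of all genes) became 15 with only the groups compared in the fit (13.8%) and 4 without the lincRNAs that share at least 50% of their transcript, an alternative chosen after seeing the data. Under FICZ, 20 (2544 of all 12741 genes) became 13 with no filter (8.9% of all genes). With each library left out in turn, calls ranged from 9 to 27 with FICZ in WT (15.6 to 32.5% of all genes), 1 to 15 in AHR KO (3.3 to 23.2%), 0 for the interaction (0.2 to 0.6%), 4 to 13 between genotypes under DMSO (3.1 to 11.6%) and 8 to 22 under FICZ (10.4 to 24.3%). The median log2 change of the lincRNAs moved by more than its spread between libraries in some settings of every comparison. Over all settings it ran from 0.00196 to 0.145 with FICZ in WT, -0.06 to 0.11 in AHR KO, -0.00166 to 0.116 for the interaction, 0.10 to 0.16 between genotypes under DMSO and 0.01 to 0.17 under FICZ, so its sign in AHR KO and for the interaction depended on the setting. Why these values moved was not tested, other than that fewer genes or libraries entered some fits. Replicate numbers are shared between groups, but deviations of same-numbered libraries of 1 genotype correlated at only 0.0346 to 0.0498 across genes, so the numbers were not taken as pairs. In AHR KO, where each group held 2 libraries, the deviations mirror each other and gave 1 value only. The replicate block treated libraries of the same number as 1 block, also across genotypes. It gave 22 calls with FICZ in WT (26.8% of all genes), 9 in AHR KO (17.6%) and 0 for the interaction (0.3%). Between genotypes it gave 6 under DMSO (8.3%) and 17 under FICZ (19.3%). The other alternatives left the counts within 1.5 times. Groups of 2 or 3 libraries limit the precision of each value.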

Other observations

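Below the limit of 20, 52 autosomal lincRNA genes had a mean of 10 or more normalised read counts and were tested in the same fit. With FICZ in WT, 4 of them (7.69%) rose and 0 fell, where 15.1% of all genes rose and 15.7% fell. In AHR KO 1 rose and 1 fell (1.92% each), where 10.2% and 9.48% of all genes did. Between genotypes 0 were called under DMSO (9.05% of all genes). At an unadjusted p under 0.05 in limma there were 2 of the 52, where 23.8% of all genes tested were. Under FICZ 1 (1.92%) was lower in AHR KO, where 10.5% of all genes were. Their median standard error on the log2 scale was 0.432 for the WT comparison. A further 3 lincRNA genes on the X chromosome had a mean of 20 or more and were left out by the rule.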
